A study of Canis lupus familiaris with 62 samples.

Results

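Meningiomas are tumours of the meninges, the membranes around the brain and spinal cord, and they are the most frequent primary brain tumours of dogs. They are treated by surgery, by radiotherapy, which kills dividing cells by breaking their DNA, or by both. Among 62 dogs with a spontaneous meningioma, 12 carried radiotherapy in their treatment label and are compared here. In 9 dogs the label gave surgery and radiotherapy (the SxRT group), and in 3 it gave radiotherapy alone (the RT group). Both groups therefore share radiotherapy and differ in the label of surgery. The labels do not say whether a tumour was taken before or after radiation, nor the dose. Specimens were surgical biopsies or tissue taken immediately after death, without a statement of which was which for each dog. Members were chosen by the treatment label alone, including the 7 SxRT dogs also labelled as lost to follow-up. The other dogs entered the same gene fit. Of these, 27 were untreated and 13 had surgery alone. A further 7 were labelled steroid or steroid/anti-epileptic, and 3 anti-epileptic.

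The groups were not alike in other ways. All 3 RT dogs were neutered males. The SxRT group held 5 females and 4 males, of which 2 were intact males and 2 were neutered males. Every RT sample name began with N and every SxRT name with S, so the letter and the treatment cannot be told apart. The same letters divided untreated dogs (27 of 27 N) from dogs with surgery alone (12 of 13 S). The labels do not explain the letters. Each sample is listed with its own sex and survival and is taken as 1 dog, so dogs are the replicates.

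RNA came from formalin-fixed, paraffin-embedded blocks archived between 2011 and 2022, and the deposited values are read counts per gene. Total counts were 5813330 ± 2161320 in SxRT (SD, n = 9) and 4346150 ± 1772000 in RT (SD, n = 3). The genes are listed by Ensembl identifier, and 0 of 30951 identifiers could be matched to a symbol with the table at hand. Gene function is therefore not described, and the tumour identity was not checked against meningeal markers. Results are given for genes by position, for chromosomes and for gene classes.

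RT replicate 1 was less like the other RT libraries than the SxRT libraries were like one another. Across 11963 genes, the median Spearman correlation was 0.709 for the 3 RT pairs and 0.853 for the 36 SxRT pairs. It was 0.733 between RT and SxRT libraries. RT replicate 1 also stood apart in that its 100 most abundant genes held 48.5% of its counts. In the other RT libraries they held 18.8% and 29.6%, and in SxRT at most 34.9%. Results that rest on RT replicate 1 are given with and without it.

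The first principal component of the 62 libraries accounted for 27.7% of their variance. RT replicates 1 to 3 scored 7.07, -68.2 and -73.9 on it. The SxRT libraries scored from 1.31 to 73.4, with a median of 50.8. RT replicates 2 and 3 lay below every SxRT library, and RT replicate 1 lay within their range. The difference of means had an exact two-sided permutation p of 0.00909, adjusted to 0.0818 over 9 library measures. The share of even values among counts of 1 to 20, which tend to be even where both reads of a pair are counted, averaged 91.9% in RT and 85.8% in SxRT. For this measure the exact permutation p was 0.0227, adjusted to 0.102. Mitochondrial genes held 16.2% ± 7.28 of counts in RT (SD, n = 3) and 10.3% ± 4.38 in SxRT (SD, n = 9). Their exact permutation p was 0.109. The difference of -5.93 percentage points was -2.98 without RT replicate 1 and -10.0 without RT replicate 2. No measure passed after adjustment. Gene counts with each of these 3 measures as a further covariate are given with the gene results.

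**Figure D1:**
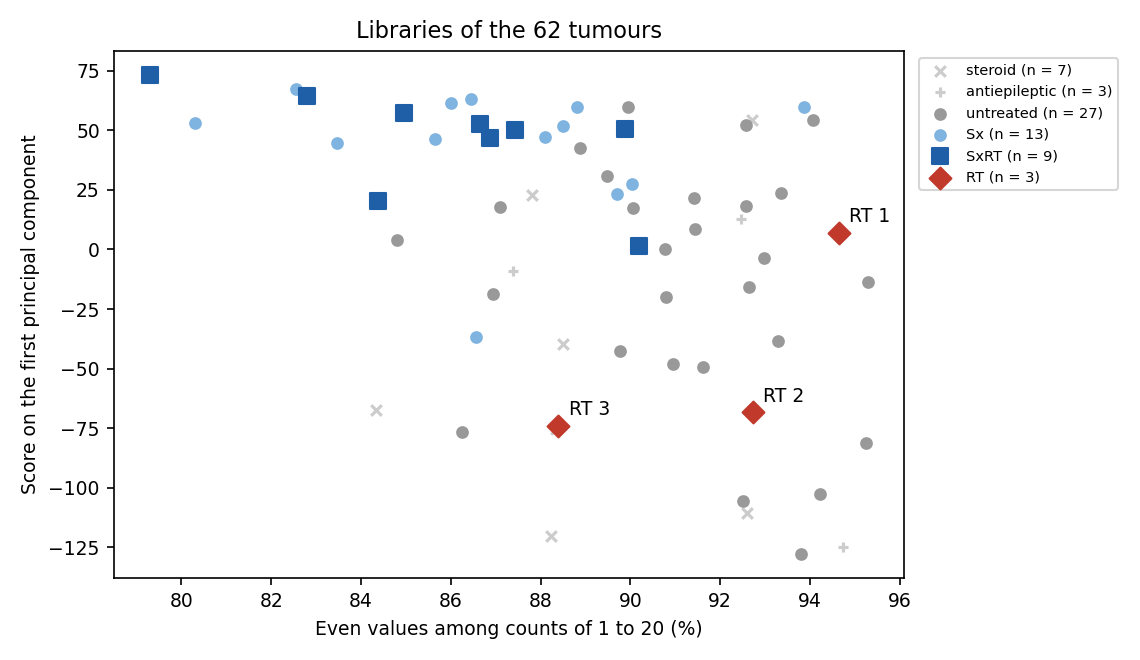
Score on the first principal component against the share of even values among counts of 1 to 20 (%), 1 point per library for all 62 tumours by treatment group. RT replicates 2 and 3 (-68.2 and -73.9) lie below all 9 SxRT libraries, and RT replicate 1 (7.07) lies within their range.

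Each library was also set beside its closest other library by the same correlation. For 6 of 9 SxRT libraries the closest was another SxRT library. SxRT replicate 4 was closest to a library of surgery alone, and SxRT replicates 1 and 2 to untreated libraries. None of the 3 RT libraries was closest to another RT library. RT replicates 1 and 3 were closest to untreated libraries and RT replicate 2 to a library labelled steroid/anti-epileptic. The 62 libraries held 3 RT, 9 SxRT and 27 untreated ones. These counts therefore depend on group size, and nothing is read from them.

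The first comparison asked which genes differed between tumours labelled with and without surgery, with radiotherapy in both labels. With all 62 libraries in 1 edgeR fit, 58 of 18370 genes were higher in SxRT (0.316%) and 325 were lower (1.77%) at an adjusted p under 0.05. The differences were unequal in size. The 58 higher genes had a median log2 fold change of 1.99, and the 325 lower genes one of -5.53. With genes at 0 in a whole group set to a floor of 3 counts over that group, these medians were 1.99 and -5.07. Over all genes tested the median was 0.03.

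Of the 325 lower genes, 49 had no count in any SxRT library and 136 had none in at least 5 of them. Counted in all 12 libraries were 127 of them. Of the 58 higher genes, 6 had no count in any RT library and 48 were counted in all 12. Both lists were chosen on these values, and a gene could pass the low-count filter through the RT libraries alone. Zeros in the group with the lower level therefore follow in part from the choice. Their share over all genes tested was not counted. A gene at 0 in these libraries was not detected at this depth. Fewer cells that use a gene and less RNA of it per cell cannot be told apart in bulk tissue.

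Most lower genes did not separate the groups in every dog. All 3 RT libraries lay above all 9 SxRT libraries for 115 of the 325 genes. For 138 genes 2 of the RT libraries did so, for 71 genes 1 did, and for 1 gene none did. RT replicate 1 lay above every SxRT library for 215 of the genes, replicate 2 for 242 and replicate 3 for 235. The genes were called on these values, so such counts follow in part from the choice. The share for a single RT library over all genes tested was not counted. Among the 58 higher genes, all 3 RT libraries lay below all SxRT libraries for 36. Over all genes tested, without regard to the model, all SxRT libraries lay above all RT libraries for 566 genes (3.08%) and below them for 493 (2.68%). With 1 RT library left out, which asks less of each gene, these counts were 1131 and 1789 without replicate 1, 985 and 857 without replicate 2, and 1357 and 916 without replicate 3.

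The called genes were then read in dogs without radiotherapy. Group levels are medians in log2 CPM (counts scaled to a common library size). For the 325 lower genes they were 4.07 in RT, 1.92 in untreated tumours, 0.48 with surgery alone and 0.13 in SxRT. The RT median lay above the untreated median for 292 of them. For the 58 higher genes the levels were 4.95 in RT, 5.27 in untreated tumours, 5.79 with surgery alone and 6.14 in SxRT. Their RT median lay below the untreated median for 58 of 58. Both lists were chosen on the RT and SxRT values, so the place of those groups at the ends of the order follows from the choice.

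Which libraries entered the fit changed the counts. Genes higher and lower in SxRT numbered 4 and 163 without RT replicate 1, 11 and 178 without RT replicate 2, and 98 and 323 without RT replicate 3. They numbered 31 and 204 without SxRT replicate 3, 36 and 211 without replicate 6, 35 and 196 without replicate 8, and 22 and 143 without replicate 9. Of the main calls, 21 lower genes and 0 higher genes were called in all 12 fits that left out 1 library. With the score on the first principal component as a further covariate, 5 genes were higher and 99 lower, of which 3 and 85 were among the main calls. That component was computed from the same counts and largely follows the groups. Adjusting for it can take up part of the group difference itself. With the share of even values as covariate they were 16 and 168, and with the mitochondrial share 57 and 279.

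**Figure D2:**
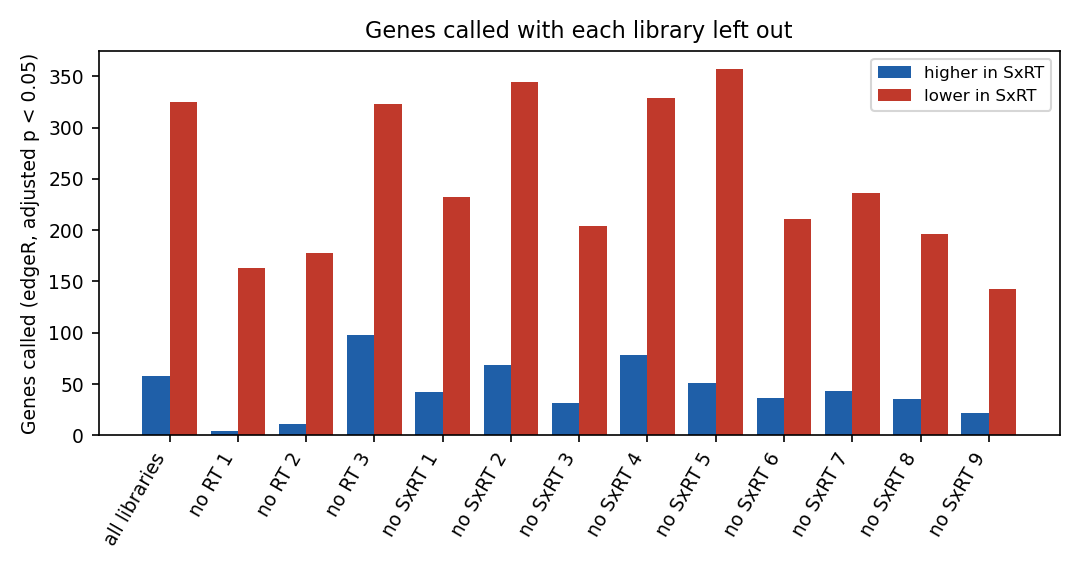
Number of genes called (edgeR, adjusted p under 0.05) with all libraries and with each of the 12 libraries left out, as bars for genes higher and lower in SxRT. Genes higher in SxRT fall from 58 to 4 without RT replicate 1, and genes lower in SxRT from 325 to 143 without SxRT replicate 9.

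Sex and neuter status were covariates, but no RT dog was female or intact. In a fit of male dogs only, 0 genes passed in either direction, with 2683 genes at an unadjusted p under 0.05 by edgeR. In neutered males only, 0 passed, with 2543 genes at an unadjusted p under 0.05 and 2 SxRT dogs left. In the male dogs, 58 of 58 higher genes and 322 of 322 lower genes that were tested had the same direction as in all dogs. At an unadjusted p under 0.05 were 57 and 306 of them. These dogs are also part of the main fit. In all dogs, DESeq2 called 247 genes higher (1.34%) and 366 lower (1.99%). limma voom called 378 higher (2.06%) and 1529 lower (8.32%). Called by all 3 tools were 51 higher and 185 lower genes.

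The 2 higher genes with the largest fold change were at 0 in every RT library. ENSCAFG00000011899 (chromosome 25, 45215380 to 45230547 in CanFam3.1, with 10 exon blocks) had 2 to 162 counts in the SxRT libraries. Its SxRT levels ran from -0.43 over a median of 2.41 to 4.18 log2 CPM, and all 9 lay above the RT level of -1.16, which stands for 0 counts. Set against a floor of 3 counts over the RT libraries together, it was 28.2-fold higher in SxRT. This ratio depends on the floor and is not a lower bound, since both reads of a pair may be counted. Of the 356 SxRT counts, 162 were in replicate 9. Its edgeR adjusted p was 0.0370. The call was lost when any of RT replicates 1, 2 and 3 or SxRT replicates 3 and 9 was left out, at adjusted p of up to 0.121. Its fitted log2 fold change, which depends on the prior count, stayed between 7.46 and 8.09 over the 12 fits, against 7.96 with all libraries.

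ENSCAFG00000004005 (chromosome 12, 68478905 to 68498049, with 5 exon blocks) had 6 to 40 counts in the SxRT libraries and none in RT. Its SxRT levels ran from 1.26 over 2.35 to 3.29 log2 CPM. Against the same floor, with the same limit, it was 18.01-fold higher in SxRT, with an edgeR adjusted p of 0.0443. It was lost in 9 of the 12 fits with a library left out: each fit without 1 of the 3 RT replicates, or without SxRT replicate 1, 3, 6, 7, 8 or 9. The highest adjusted p was 0.135, and the fitted log2 fold change stayed between 7.48 and 7.76, against 7.63. Neither gene was absent from tumours without radiotherapy. In untreated tumours ENSCAFG00000011899 had a median of 1.91 log2 CPM with 2 of 27 libraries at 0, and ENSCAFG00000004005 had 1.22 with 5 of 27 at 0.

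The 2 lower genes with the largest fold change rested on RT replicate 1. ENSCAFG00000024344 (chromosome 6, 40646351 to 40718462, with 18 exon blocks) stood at 16.37, -1.16 and 7.47 log2 CPM in RT replicates 1 to 3. In SxRT it was at 0 in 6 of 9 libraries and reached 6.67 in replicate 1. The groups overlapped, because RT replicate 2 also had no count. Its log2 fold change was -10.12 (SE 2.61), with an edgeR adjusted p of 0.0271. Without RT replicate 1 it was -1.79, with an adjusted p of 0.795. The call was also lost without SxRT replicate 9, with an adjusted p of 0.0559.

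ENSCAFG00000016308 (chromosome 18, 55110175 to 55163084, with 18 exon blocks) overlaps 1 gene on the opposite strand. The counting did not use strand, so reads of these genes cannot be told apart where they overlap. It stood at 17.11, 2.59 and 8.32 log2 CPM in RT replicates 1 to 3, and at 0.19 over 2.98 to 7.47 in SxRT. RT replicate 2 lay within the SxRT range. Its log2 fold change was -10.02 (SE 2.05), with an edgeR adjusted p of 0.00521, and -1.84 without RT replicate 1, with an adjusted p of 0.698. limma voom did not call either lower gene, with adjusted p of 0.297 for ENSCAFG00000016308 and 0.102 for ENSCAFG00000024344, and DESeq2 gave no adjusted p for them.

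In RT replicate 1 these genes were among the 3 most abundant of the library. ENSCAFG00000016308 held 10.8% of its counts (Wilson 95% interval 10.7 to 10.8) and ENSCAFG00000024344 held 6.41% (6.39 to 6.43), intervals that cover counting error only. RT replicate 1, RT replicate 3, SxRT replicate 1 and SxRT replicate 9 were the 4 highest of the 12 libraries for both genes, in that order. Where counts were high, the genes rose together. ENSCAFG00000024344 and ENSCAFG00000016308 had 360665 and 604619 counts in RT replicate 1, and 874 and 1583 in RT replicate 3. They had 481 and 834 in SxRT replicate 1, and 984 and 1736 in untreated replicate 9. They are thus not independent cases, and why they rose together was not tested. Tumours without radiotherapy also reached the level of RT replicate 3. ENSCAFG00000024344 rose to 8.13 log2 CPM in untreated tumours and 7.53 with surgery alone, with medians of -0.26 and 1.44. ENSCAFG00000016308 rose to 8.95 and 8.20, with medians of 2.75 and 3.16.

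**Figure D3:**
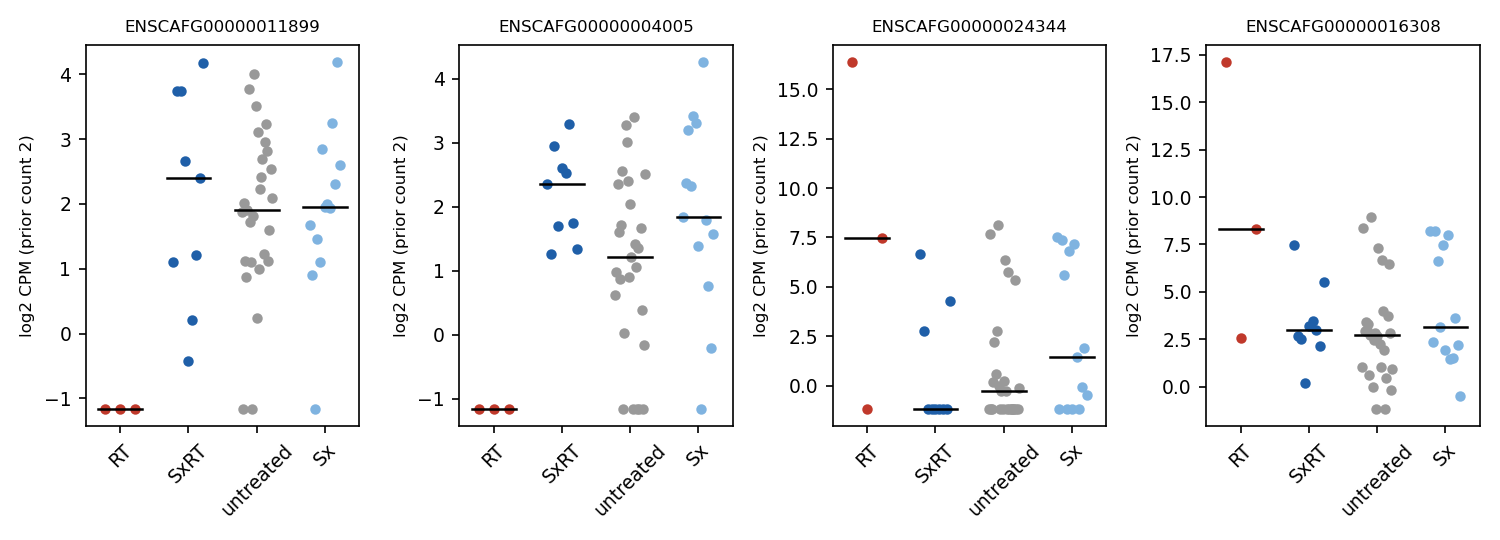
Level in log2 CPM of the 4 named genes in each RT, SxRT, untreated and surgery-only (Sx) library, with a line at each group's median. The 2 genes on the left are at 0 counts (-1.16) in all 3 RT libraries, and the 2 on the right reach 16.37 and 17.11 in RT replicate 1.

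The next comparison set these genes beside the difference by surgery label in dogs without radiotherapy, that is surgery alone (Sx, n = 13) minus untreated (n = 27). These are different dogs, and the contrasts share no library. In that contrast 657 genes were higher (3.58%) and 853 lower (4.64%) by edgeR. Of the 58 genes higher in SxRT than RT, 57 had a positive difference there and 13 were called higher. Of the 325 lower genes, 279 had a negative difference, 100 were called lower and 2 were called higher. Over all genes tested, 12683 of 18370 (69.0%) had the same sign in both contrasts, with r = 0.49 across genes, which are not independent replicates. The name letter follows surgery in both contrasts, so its part cannot be told apart from that of surgery.

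The 325 lower genes had a median of -1.26 in Sx minus untreated. Their median of -5.53 in SxRT minus RT comes from the contrast that selected them, so the sizes are not compared. Read the other way, 577 of the 657 genes higher with surgery alone and 801 of the 853 lower genes kept their sign in SxRT minus RT. Their medians there were 0.69 and -2.66. In separate fits of each contrast, 198 of 205 higher and 470 of 492 lower genes had the same sign, against 71.3% of all genes tested in both.

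**Figure D4:**
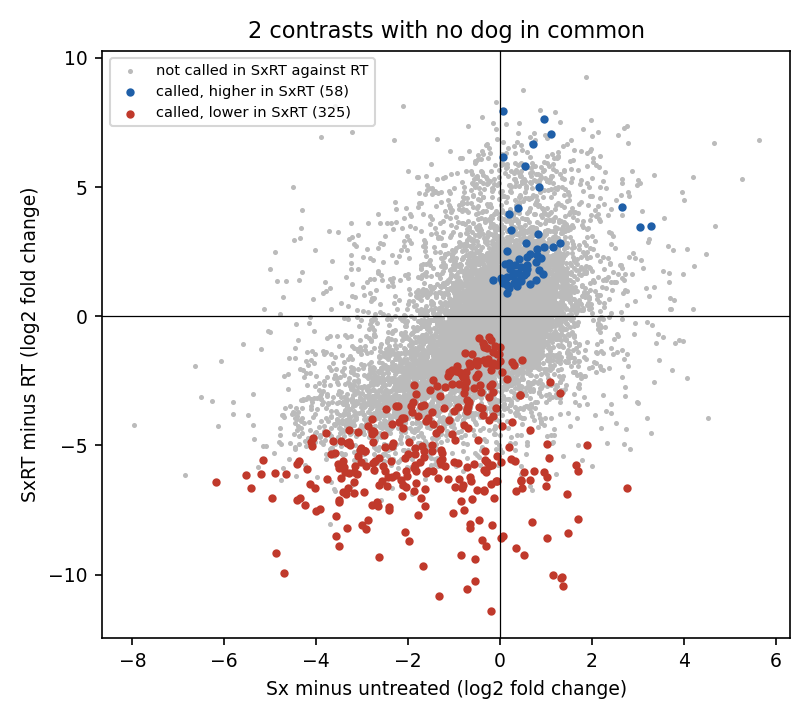
log2 fold change of each gene in SxRT minus RT (vertical axis) against Sx minus untreated (horizontal axis), with the genes called higher (58) and lower (325) in SxRT in colour. Most lower genes lie left of 0 (279 of 325), and fitted values of genes at 0 in a whole group depend on the prior count.

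The difference between the contrasts was itself tested. It was positive for 1 gene (0.00544%) and negative for 32 (0.174%), with 1367 genes at an unadjusted p under 0.05 by edgeR. Of the 32 genes, 28 were highest of the 12 libraries in RT replicate 1 and 4 in RT replicate 2. Without RT replicate 1 no gene passed in either direction, with 958 at an unadjusted p under 0.05. Without RT replicate 2 it was 3 and 59 genes, and without RT replicate 3 it was 20 and 72. Without SxRT replicate 2, 3, 6, 7 or 9 it was 21 negative genes each time. The 1 positive gene was lost without SxRT replicate 1, 2, 5, 6, 7 or 9. limma voom called 0 genes, with 2151 at an unadjusted p under 0.05, and DESeq2 called 15 positive and 24 negative.

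Of the named genes, ENSCAFG00000016308 passed this test, with a difference of -11.17 and an adjusted p of 0.00770. The others did not, at adjusted p of 0.173 for ENSCAFG00000011899, 0.324 for ENSCAFG00000004005 and 0.0743 for ENSCAFG00000024344. In Sx minus untreated the log2 fold changes were 0.06, 0.95, 1.32 and 1.14 for ENSCAFG00000011899, ENSCAFG00000004005, ENSCAFG00000024344 and ENSCAFG00000016308, and none was called.

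Expression was next summed by chromosome, since gain or loss of a whole chromosome moves many of its genes together. A chromosome score was the mean over its genes of the log2 CPM less the gene's mean over 62 libraries, less the library's median over autosomes. Of 39 chromosomes, 5 differed between SxRT and RT, all lower in SxRT, each with an exact two-sided permutation p of 0.00455, the smallest that 220 splits allow, and an adjusted p of 0.0355. At an unadjusted p under 0.05 were 8 chromosomes.

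Chromosome 36 had the largest difference among the 5, with a score difference of -0.494 on the log2 scale over 103 genes. Its scores were 0.311, 0.437 and 0.182 in RT replicates 1 to 3, and ran from -0.328 over -0.175 to 0.0133 in SxRT. On chromosome 29 the RT scores were 0.112, 0.224 and 0.168, and the SxRT scores ran from -0.312 over -0.0909 to 0.00999, a difference of -0.271. On chromosome 37 the RT scores were 0.188, 0.0429 and 0.161, and the SxRT scores ran from -0.382 over -0.114 to 0.0184, a difference of -0.260. The RT and SxRT scores did not overlap on these chromosomes.

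Chromosomes 32 and 19 differed by -0.252 and -0.212. On chromosome 32 the RT scores were 0.0941, 0.0832 and 0.0927, and the SxRT scores ran from -0.295 over -0.176 to -0.0232. On chromosome 19 the RT scores were 0.0424, 0.0899 and -0.00446, and the SxRT scores ran from -0.321 over -0.188 to -0.00899, so its groups were separated by a narrow margin. Of the 1015 genes tested on the 5 chromosomes, 30 were called lower (2.96%), beside 1.77% of all genes. The chromosomes had been picked as lower in the same libraries, so nothing is read from this share. It ran from 1.33% on chromosome 37 to 5.26% on chromosome 36, and chromosome 22, which is not among the 5, had 3.85%.

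**Figure D5:**
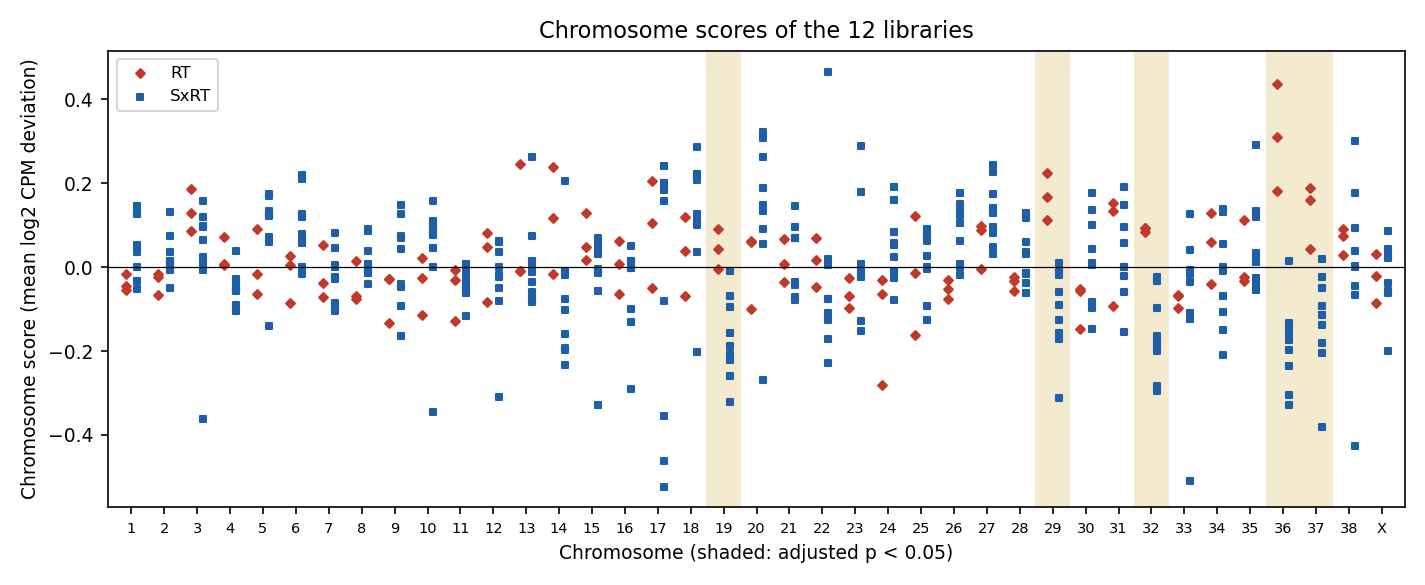
Chromosome scores (mean log2 CPM deviation) of the 3 RT and 9 SxRT libraries on 39 chromosomes, with the 5 chromosomes at an adjusted permutation p of 0.0355 shaded. On each shaded chromosome all SxRT libraries lie below all RT libraries.

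The chromosome results depended on how the score was made. With the median over genes, or with only genes at a mean of at least 4 log2 CPM, 0 of the 5 passed. With the more abundant genes the difference was -0.331 on chromosome 36, -0.255 on 32 and -0.245 on 19, each at an adjusted p of 0.0709 by exact permutation. It was -0.180 on chromosome 37 and turned to 0.0417 on chromosome 29. With the median over genes it was -0.258 on chromosome 36, -0.215 on 19, -0.213 on 32, -0.203 on 29 and -0.138 on 37. None passed without RT replicate 1, 2 or 3, where too few splits remain, or without SxRT replicate 1, 3, 6 or 9. In surgery alone minus untreated, the differences were -0.174 for chromosome 36, -0.175 for 29, -0.130 for 32, -0.0398 for 19 and 0.000170 for 37. None of these 5 passed there by a permutation test, with the smallest adjusted p of 0.101 on chromosome 29.

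Gene structure was read last, as a description with no test. Genes with 1 exon block were called lower in 7 of 1539 cases (0.455%), and genes with 10 or more blocks in 168 of 7858 (2.14%), beside 1.77% of all genes tested. The share for 10 or more blocks is thus near that of all genes. By exonic length, 12 of 1433 genes under 500 bases were called lower (0.837%), and 42 of 1478 over 5000 bases (2.84%). The median log2 fold change lay between 0.02 and 0.10 in every class of exon number and length.

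The 16 mitochondrial genes tested, most of which encode parts of the respiratory chain or RNAs of the mitochondrial ribosome, were lower in value in SxRT in 16 of 16 cases. Their log2 fold changes ran from -1.76 to -0.28 with a median of -0.95. Of all genes tested, 51.3% were higher in value in SxRT. The 16 genes rise and fall with a library's mitochondrial share, so they are not independent cases. None passed, the smallest edgeR adjusted p being 0.135. In surgery alone minus untreated 16 of 16 were negative as well, with a median of -0.63. Without RT replicate 1, whose mitochondrial share was the highest of the 12 libraries, 13 of 16 were negative in SxRT minus RT.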

How the data were processed

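The authors deposited read counts per gene. Per the file headers they were made with featureCounts 2.0.4 on exons of the Ensembl release 100 annotation of CanFam3.1, without strand and without a setting to count pairs as 1. STAR and DESeq2 are named, without versions, per the submitters' processing notes. Sequencing was paired-end, 150 nt. Exonic length was the only other deposited column used.

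Counts were fitted with edgeR 4.0.16 (R 4.3.3; filterByExpr by group, TMM, quasi-likelihood test, sex and neuter status as covariates) over 62 libraries in 6 groups, with Benjamini-Hochberg adjustment. Levels are log2 CPM with a prior count of 2. Scripts were tested on simulated data. Alternatives were limma voom (3.58.1) with sample weights and DESeq2 (1.42.0). Library and chromosome values were compared by exact permutation over 12 samples, Sx against untreated with 100000 resamples. No 2 libraries were alike (smallest chi-square 14.0 per gene over 1891 pairs).

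Named genes had an adjusted p under 0.05, a mean of at least 1 log2 CPM and a median difference of at least 0.5, the 2 largest fold changes per direction. Groups, lists and tests were chosen with earlier results of these data known. The gene and cell marker lists were not analysed, for want of gene names.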

Additional observations from a re-analysis of the deposited data

Results flagged for a closer look

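On the second principal component SxRT replicate 4 scored 54.8, far from the next SxRT library at 6.78. This was 1 of 18 checks for a library standing apart from its group. The checks use measures of the same libraries and are not independent. A flag among 18 checks can arise by chance, and this was not tested. The difference SxRT minus RT departed from Sx minus untreated for 33 genes, and for 0 genes without RT replicate 1. Among them ENSCAFG00000016308 departed by -11.17 on the log2 scale, with an edgeR adjusted p of 0.00770.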

How the results depend on the processing

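Groups of 3 and 9 dogs, with RT replicate 1 unlike the other RT libraries, limit every count of genes. No paired analysis was possible because the labels give no replicate numbers and each dog is in 1 group. Genes higher and lower in SxRT, 58 and 325 as reported, were 247 and 366 by DESeq2, 378 and 1529 by limma voom, 16 and 168 with the even share as covariate, and 24 and 150 with the number in the sample name as covariate. They were 216 and 532 with only the 12 libraries, 136 and 338 with sex added to that fit, 66 and 520 with no low-count filter, and 32 and 140 with a strict one (at least 10 counts in 31 libraries), which tests fewer genes. After the data were seen, male dogs only (0 and 0) and the first principal component as covariate (5 and 99) were added. Neutered males only gave 0 and 0. Leaving out 1 library gave 4 to 98 higher and 143 to 357 lower genes. The difference of the contrasts was positive for 15 genes by DESeq2 and 0 by limma voom, and negative for 0 by limma voom. Leaving out 1 library, also added later, gave 0 to 20 positive and 0 to 72 negative. The share of lower genes with the same sign in Sx minus untreated, 85.8% as reported, was 95.5% in separate fits and 94.96% for limma voom calls. Genes lower with 1 exon block were 5.39% by limma voom and 2.27% with only the 2 groups, and with 10 or more blocks 9.65% and 4.18%. Chromosomes past the threshold, 5 as reported, were 0 with the median over genes, 0 with genes of at least 4 log2 CPM, where chromosome 29 turned to 0.0417, and 0 to 6 with a library left out. Genes without overlap ranged over 595 to 1357 higher and 512 to 1789 lower with a library left out. The cause of these changes was not tested, and some of the settings also use fewer genes or samples.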
